A study of Mus musculus with 2 samples.

Results

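The collagen chain genes encode the alpha chains that assemble, always in trimers, into the collagens of the extracellular matrix. They were taken from the deposited expression table by symbol, as protein-coding rows named Col, a type number, the letter a and a chain number, which gave 44 genes of 23097 rows. The genes lie on 15 chromosomes. They were divided by the known structure of the protein into 11 fibrillar genes, 9 genes of fibril-associated collagens with interrupted triple helices (FACIT), 6 type IV genes of the basement membrane and 18 others.

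The cells were mouse embryonic fibroblasts (MEF), primary connective tissue cells grown from embryos, of the outbred ICR strain. All cells were loaded with calcein, a fluorescent dye, and with CoCl2, whose cobalt quenches the dye outside closed mitochondria, and were then sorted by fluorescence. Bright cells made up the low mPTP opening group and dim cells the high mPTP opening group, where mPTP is the mitochondrial permeability transition pore, a large channel of the inner membrane. Each group is 1 library of total RNA, with no genotype, drug or time that sets the groups apart, and the labels do not give the age of the embryos or say how many were pooled. No difference below therefore has a replicate check, and no p-value was computed. Levels are FPKM, which divides the fragments or reads of a gene by its length and by the library's depth, so they can be set side by side between genes. The steps of the FPKM values gave denominators of 15060435 (low) and 16375736 (high) reads or fragments. In brackets after a ratio stands its exact Clopper-Pearson 95% interval, which covers counting error and not the spread between cultures or sorts.

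Collagen chains carry long repeats with glycine at a regular spacing, which lets the chains wind into a triple helix. Prolines and lysines of new chains are hydroxylated in the endoplasmic reticulum, the folded trimer is exported with the help of the chaperone HSP47, its propeptides are cut off, and the fibrils are cross-linked by lysyl oxidases. Fibroblasts are the main source of the fibrillar types I, III and V, and also make type VI microfilaments and type IV networks. Types II, IX, X and XI are best known from cartilage.

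Both libraries held RNA of fibroblast markers together with RNA of genes listed as markers of other cells. All 10 fibroblast markers examined, which exclude collagens, passed a mean of 1 FPKM, with summed levels of 1064 FPKM in the low and 1038 FPKM in the high mPTP opening library. Within this sum single markers differed, with 6 at a lower and 4 at a higher level in the high library. Dcn was at 175 and 98.9 FPKM and Lum at 147 and 91.6 FPKM, while Vim was at 503 and 578 FPKM and Thy1 at 56.6 and 81.7 FPKM. The sums of some other lists differed more. The sum of 12 macrophage markers was 980 against 485 FPKM, that of 8 Schwann and glia markers 13.6 against 2.26 FPKM, and that of 7 mesothelial markers 39.3 against 17.5 FPKM, with none of these at 0 in either library. The sum of 11 smooth muscle and pericyte markers was 1281 against 2145 FPKM, most of it from Acta2 at 1166 and 1953 FPKM. Of these 11 markers 7 were at a higher and 4 at a lower level in the high library. The 4 lower ones were Abcc9, Kcnj8, Notch3 and Rgs5. Of 7 endothelial and 8 keratinocyte markers 1 and 0 passed 1 FPKM. In bulk RNA, fewer cells of a type and less RNA per cell cannot be told apart. The part of these cells in the collagen values was not tested.

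As a group, the collagen genes made up a similar share of the transcripts in both libraries, while single chains differed. The summed level of the 44 genes was 7696 FPKM in the low and 7571 FPKM in the high mPTP opening library, a ratio of 0.984. This was 3.15% and 3.08% of the FPKM of protein-coding genes outside the mitochondrial chromosome, and 2.43% and 2.61% of the FPKM of all rows. The type I pair alone made up 56.0% of the collagen sum in the low and 59.2% in the high library. The other 42 genes together were at 3385 against 3087 FPKM, a ratio of 0.912.

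Of the 44 genes 32 had a mean of at least 1 FPKM and are called measured. Differences were computed as log2 of (high + 1)/(low + 1) of FPKM, and a gene that reached 1.5-fold on that scale was called higher or lower. By this rule 1 collagen gene, Col10a1, was called higher with high mPTP opening, and 5 were called lower, Col26a1, Col18a1, Col9a2, Col6a6 and Col14a1. Among all 11898 measured genes the higher share was 1.54% and the lower share 4.38%, against 3.12% and 15.6% of the measured collagen genes. At 2-fold on the same scale 0 collagen genes were higher and 1, Col26a1, was lower, where the shares of all genes were 0.328% and 0.958%. With 5 FPKM added only Col18a1 of the 6 called genes stayed past 1.5-fold. Of the lower genes Col6a6 reached 1 FPKM in the low library alone. The median difference of the measured collagen genes was -0.13, with 23 negative and 9 positive, and that of all measured genes was -0.02. The lower calls came from genes with a mean under 50 FPKM. At a mean of 1 to 5 FPKM 3 of 10 collagen genes were lower, where 6.73% of all genes were. At a mean of 5 to 50 FPKM 2 of 6 collagen genes were lower and 1 was higher, where 2.77% and 1.24% of all genes were. At a mean of 50 FPKM or more 0 of 16 collagen genes were called, where 1.35% of all genes were higher and 3.95% lower. Of those 16 genes 11 had levels within 10% of each other in the libraries, which held for 42.8% of all 887 genes at that level.

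**Figure D1:**
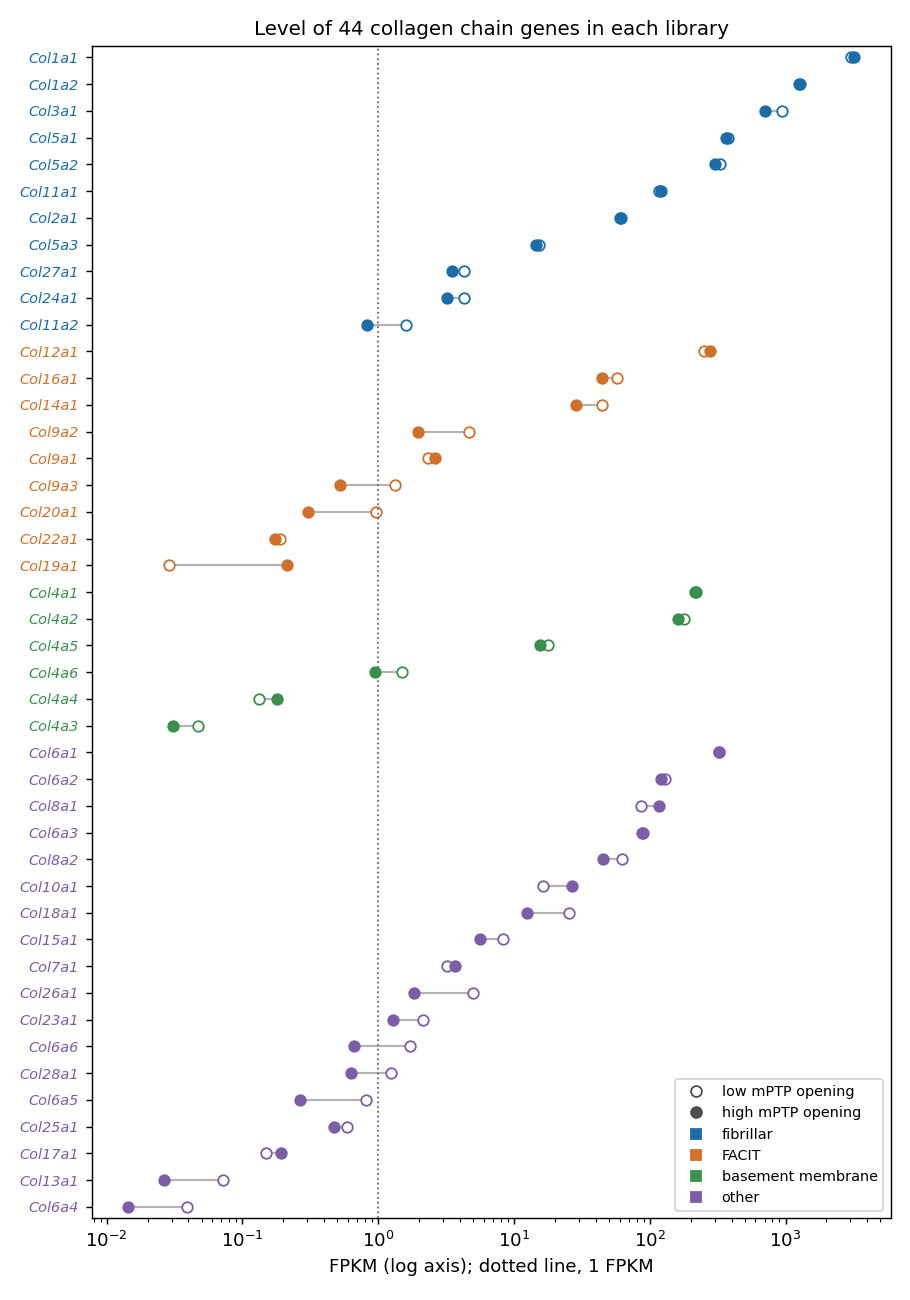
FPKM of each of the 44 collagen chain genes in the low (open circle) and high (filled circle) mPTP opening library on a log axis, grouped and coloured by class and ordered by mean. Of the 16 chains at a mean of 50 FPKM or more, 11 lie within 10%, as for Col1a2 at 1252 and 1279 FPKM. Others lie further apart, as for Col3a1 at 939 and 711 FPKM. The open circles of Col26a1, Col18a1, Col9a2 and Col6a6 lie to the right of the filled ones.

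**Figure D2:**
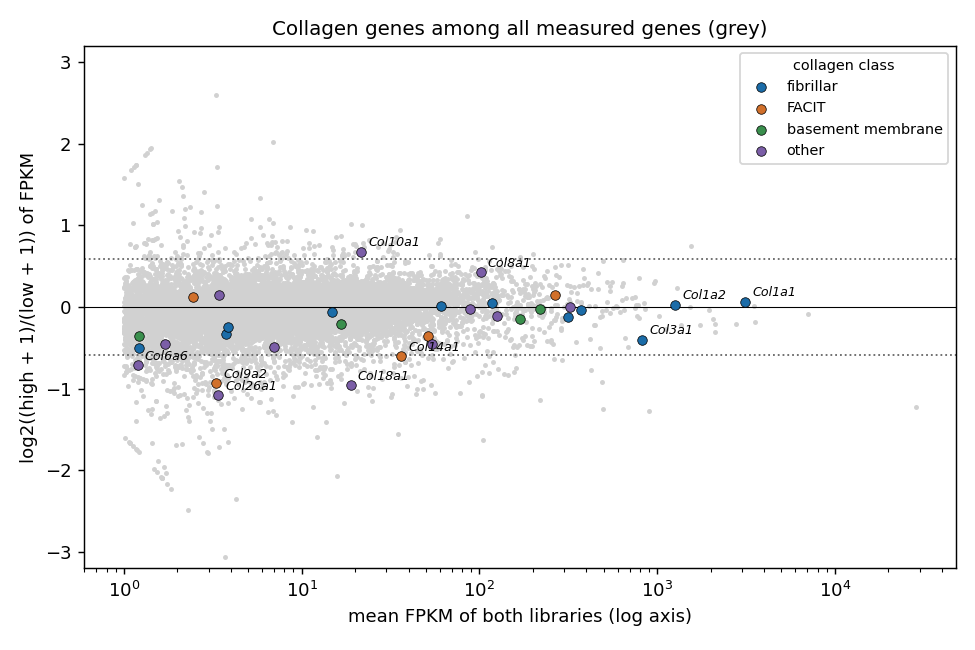
Difference against mean FPKM (log axis) for all 11898 measured genes in grey and the 32 measured collagen genes in colour, with dotted lines at 1.5-fold. Of the collagen genes 1 lies above the upper line and 5 lie below the lower one, all at a mean under 50 FPKM.

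The sequence before the RefSeq start (build GRCm38.p6) is shown for Col10a1, Col18a1 and Col6a6 of the called genes, for the type VIII pair and for Col3a1, so that the stretches before genes with opposite differences can be compared. The other called genes had no entry or less than 100 bases clear of exons. Each is printed from the distal end to the last base clear of annotated exons, on the strand of the gene. Capitals mark matches to TATAAA (the TATA box), CCAAT (bound by NF-Y), GGGCGG (bound by SP1), TGANTCA (AP-1) or ACAAAG (SOX factors) on either strand, and different motifs did not overlap each other.
Col3a1 (chr1:45311288-45311537, plus strand): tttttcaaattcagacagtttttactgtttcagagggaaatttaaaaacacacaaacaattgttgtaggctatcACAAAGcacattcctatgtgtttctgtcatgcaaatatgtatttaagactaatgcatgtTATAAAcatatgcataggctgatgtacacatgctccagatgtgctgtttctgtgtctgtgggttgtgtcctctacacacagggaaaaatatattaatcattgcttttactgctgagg
Col18a1 (chr10:77166549-77166780, minus strand): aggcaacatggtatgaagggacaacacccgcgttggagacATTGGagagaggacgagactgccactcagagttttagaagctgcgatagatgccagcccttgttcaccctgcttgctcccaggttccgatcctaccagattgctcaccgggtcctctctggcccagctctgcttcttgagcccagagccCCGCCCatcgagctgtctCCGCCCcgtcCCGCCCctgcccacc
Col6a6 (chr9:105828161-105828335, minus strand): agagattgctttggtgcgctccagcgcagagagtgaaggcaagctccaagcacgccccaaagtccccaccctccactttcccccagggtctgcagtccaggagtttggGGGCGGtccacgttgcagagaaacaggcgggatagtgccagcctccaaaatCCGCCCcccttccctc
Col8a2 (chr4:126286544-126286792, plus strand): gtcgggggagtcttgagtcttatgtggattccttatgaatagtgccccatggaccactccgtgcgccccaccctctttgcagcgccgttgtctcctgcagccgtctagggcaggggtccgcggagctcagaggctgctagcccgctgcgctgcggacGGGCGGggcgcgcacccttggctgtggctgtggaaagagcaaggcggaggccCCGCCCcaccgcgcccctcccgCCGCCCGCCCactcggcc
Col8a1 (chr16:57754738-57754987, minus strand): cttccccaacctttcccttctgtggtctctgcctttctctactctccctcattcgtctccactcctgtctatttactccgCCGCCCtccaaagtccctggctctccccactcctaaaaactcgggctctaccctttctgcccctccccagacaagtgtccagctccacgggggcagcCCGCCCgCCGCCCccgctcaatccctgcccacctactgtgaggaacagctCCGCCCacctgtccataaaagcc
Col10a1 (chr10:34389731-34389980, plus strand): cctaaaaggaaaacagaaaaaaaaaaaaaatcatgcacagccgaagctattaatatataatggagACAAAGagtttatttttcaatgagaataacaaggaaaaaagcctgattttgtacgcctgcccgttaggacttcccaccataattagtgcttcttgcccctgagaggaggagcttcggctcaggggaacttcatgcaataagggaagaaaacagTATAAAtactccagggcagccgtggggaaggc
Col10a1, the gene with the higher call, and Col3a1 each had 1 match to TATAAA and 1 to ACAAAG, and their printed stretches had 41.6% and 35.2% of G and C. In Col10a1 the TATAAA lay from 32 to 27 bases before the start, and in Col3a1 it lay further off, from 117 to 112 bases. Col18a1 had 3 matches to GGGCGG and 1 to CCAAT, and Col6a6 had 2 to GGGCGG. Col8a1 and Col8a2, whose differences have opposite signs, each had 4 matches to GGGCGG and none to the other motifs. Over the 250 bases before the start, GGGCGG was found in 22 of 38 windows of 35 collagen genes (57.9%) and in 32.7% of all 32851 windows in the table. The collagen windows were also richer in G and C, with a median of 59% against 52.4%, and the part of this in the matches was not tested. TATAAA was found in 13.2% of collagen and 12.4% of all windows, and CCAAT in 34.2% and 33.8%. ACAAAG was found in only 4 of the 38 collagen windows (10.5%) and in 16.5% of all. TGANTCA was found in only 1 collagen window (2.63%) and in 6.75% of all. A match describes the letters of the window and is not a binding site shown by these data.

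The fibrillar genes, whose chains form the rope-like fibrils of connective tissue, were all measured. Of the 11 genes 0 were called, beside 1.54% higher and 4.38% lower of all measured genes. The fibrillar median difference was -0.06, a sign that turned positive after scaling each library to a sum of 1000000. As deposited, 4 fibrillar genes were positive and 7 negative. Col1a1 (ENSMUSG00000001506, chromosome 11, 94936224 to 94953042), the alpha-1 chain of type I collagen, was at 3059 FPKM in the low and 3204 FPKM in the high mPTP opening library. It ranked 5 among all genes in each. Its ratio of high to low was 1.05 (1.04 to 1.05). Col1a2 (ENSMUSG00000029661, chromosome 6, 4504814 to 4541544), its partner chain, was at 1252 and 1279 FPKM, a ratio of 1.02 (1.02 to 1.03), and ranked 15 in each library. The type I genes thus lay close together in the libraries.

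Col3a1 (ENSMUSG00000026043, chromosome 1, 45311538 to 45349706) encodes the chain of type III collagen, which forms fine fibrils with type I in pliable tissues. It was at 939 FPKM in the low and 711 FPKM in the high mPTP opening library, 1.32-fold lower (1.31 to 1.33) and short of the 1.5-fold size. It ranked 21 in the low and 32 in the high library. Of the 4 most abundant collagen genes it was the furthest apart. The ratio of Col3a1 to Col1a1 level was 0.307 in the low and 0.222 in the high library, a comparison chosen after the values were seen.

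The type V genes encode chains that start type I fibrils and limit their width. Col5a1 was at 376 and 367 FPKM, a ratio of 0.976 (0.964 to 0.989), and Col5a2 was at 330 and 303 FPKM, a ratio of 0.920 (0.909 to 0.932). Col5a3, a chain of a rarer type V trimer, was at 15.2 and 14.5 FPKM, a ratio of 0.955 (0.890 to 1.02). All 3 were slightly lower as deposited, and all 3 turned positive after scaling to a sum of 1000000.

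Chains known from cartilage fibrils were abundant too. Col11a1, the alpha-1 chain of type XI, was at 116 and 121 FPKM, a ratio of 1.04 (1.02 to 1.06). Col2a1, the main chain of cartilage, was at 60.7 and 61.2 FPKM, a ratio of 1.01 (0.980 to 1.04), and this depth could not tell the libraries apart. Col11a2, the alpha-2 chain of type XI, was at 1.59 and 0.831 FPKM, or 165 and 94 reads, a level 1.92-fold lower (1.47 to 2.49). On the log2 scale with 1 FPKM added its difference was -0.50, short of the call, and it passed with 0.1 FPKM added or after scaling to a sum of 1000000. The cartilage proteoglycan gene Acan was at 1.89 and 3.04 FPKM and the cartilage factor Sox9 at 6.15 and 7.22 FPKM. The cartilage matrix genes Matn3 and Hapln1 were at 1.92 and 2.78 FPKM and at 1.05 and 1.72 FPKM. These 4 were the measured chondrocyte markers, all positive, with a median of 0.39. The cartilage matrix gene Comp, at 0.761 and 0.453 FPKM, was under the filter, with 34 and 22 reads and an interval that held 1. The part of cartilage cells in the level of Col11a2 was not tested.

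The minor fibrillar genes Col24a1 and Col27a1, of types that appear in developing bone and cartilage, were at low level. Col24a1 was at 4.29 and 3.19 FPKM, 1.34-fold lower (1.18 to 1.54), and Col27a1 was at 4.28 and 3.47 FPKM, 1.24-fold lower (1.12 to 1.37). Neither reached the 1.5-fold size.

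**Figure D3:**
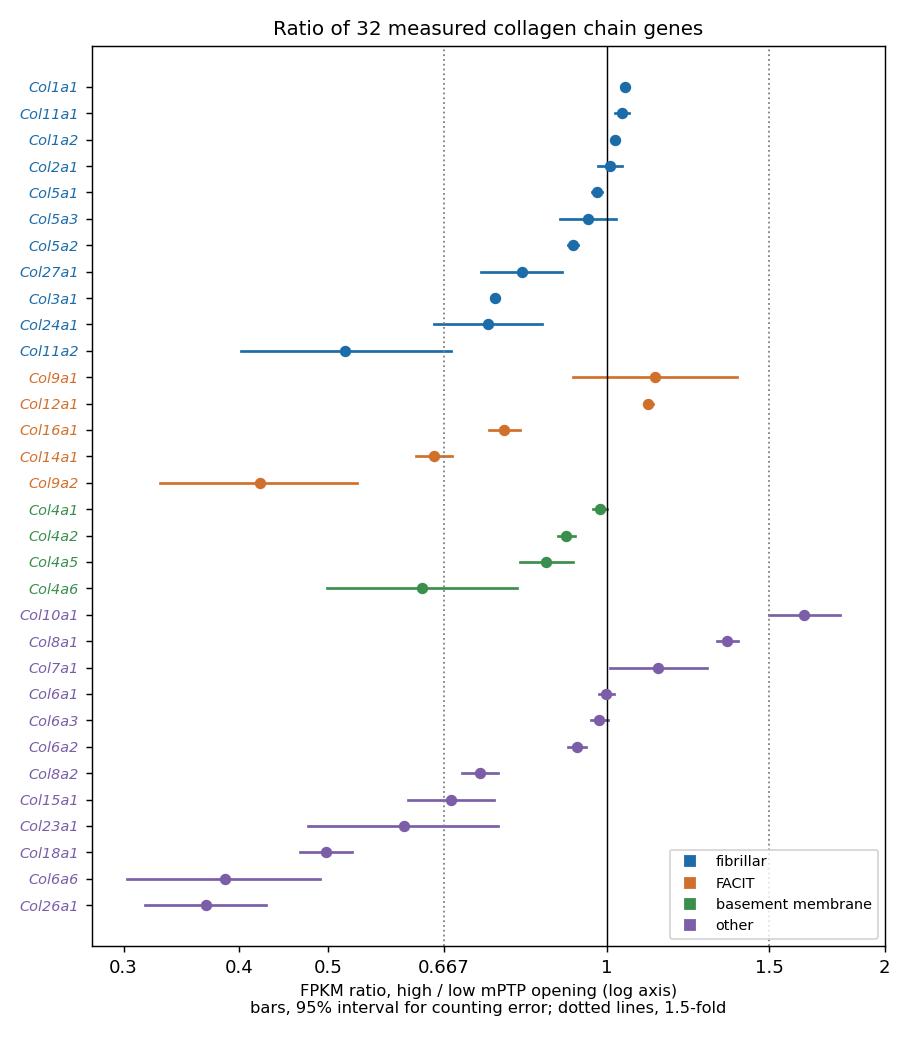
Ratio of FPKM, high over low mPTP opening, of the 32 measured collagen genes on a log axis, with exact 95% intervals for counting error and dotted lines at 1.5-fold. Most fibrillar genes sit near 1, Col8a1 and Col10a1 reach 1.35 and 1.64 at the upper end, and Col26a1 lies lowest at 0.368.

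The FACIT genes encode collagens that sit on the surface of fibrils, and they did not share a direction. Of 9 genes 5 were measured, of which 2 were lower and 0 higher by 1.5-fold, beside 4.38% and 1.54% of all genes, with a median difference of -0.36. Col12a1 (ENSMUSG00000032332, chromosome 9, 79598991 to 79718831), the most abundant of them, was at 252 FPKM in the low and 280 FPKM in the high mPTP opening library, a ratio of 1.11 (1.10 to 1.12). Col14a1 (ENSMUSG00000022371, chromosome 15, 55307750 to 55520803), whose product is a close relative of type XII, was at 44.2 and 28.7 FPKM, 1.54-fold lower (1.47 to 1.61). Its call was lost under each of the 3 other scalings and with 5 FPKM added. The ratio of Col12a1 to Col14a1 level was 5.71 in the low and 9.74 in the high library, also a comparison chosen after the values were seen. Col16a1, a minor FACIT gene, was at 57.6 and 44.7 FPKM, 1.29-fold lower (1.24 to 1.34).

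Type IX collagen is a trimer of 3 different chains that coats type II fibrils in cartilage. Its genes differed unequally. Col9a2 (ENSMUSG00000028626, chromosome 4, 121039385 to 121055322) was at 4.63 and 1.95 FPKM, or 216 and 99 reads, 2.37-fold lower (1.86 to 3.04). Col9a3, at 1.33 and 0.523 FPKM, was 2.54-fold lower (1.67 to 3.94), but its mean was under 1 FPKM and 6.07% of its exon sequence is shared with Tcfl5 on the other strand. Col9a1 was at 2.31 and 2.60 FPKM, a ratio of 1.13 (0.921 to 1.39). The ratio of Col9a1 to Col9a2 was 0.498 in the low and 1.33 in the high library, while Col9a3 to Col9a2 was 0.286 and 0.268. Beside the lower levels of Col9a2 and Col9a3, all 8 listed Schwann and glia markers were at a lower level in the high library, among them Sox10 at 3.26 and 0.0900 FPKM. The 4 of them with a mean of 1 FPKM passed only through the low library. Of the chondrocyte markers 5 were at a higher and 2 at a lower level in the high library, and none of the measured ones reached the size. The part of either cell type was not tested.

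The remaining FACIT genes were near the limit of detection. Col20a1 was at 0.966 and 0.306 FPKM, about 75 and 26 reads, 3.16-fold lower (1.98 to 5.11). Col22a1 had 26 reads in each library. Col19a1 had 3 and 24 reads, or 0.0289 and 0.213 FPKM, a ratio of 7.36 with a counting interval from 2.23 to 38.2.

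The type IV genes encode the chains of the sheet-like network under epithelia and around muscle. Of 6 genes 4 were measured and 0 were called, beside 1.54% higher and 4.38% lower of all measured genes. The median difference of these 4 was -0.17. All 4 were negative as deposited, with Col4a1 turning positive under each of the 3 other scalings. Col4a1 (ENSMUSG00000031502, chromosome 8, 11198423 to 11312826) was at 221 and 217 FPKM, a ratio of 0.983 (0.966 to 1.00). Col4a2 (ENSMUSG00000031503, chromosome 8, 11312805 to 11449287), which starts head to head with it and overlaps it by 22 bases, was at 177 and 160 FPKM, a ratio of 0.904 (0.885 to 0.923). The chains of these genes form the widespread type IV trimer.

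The X-linked pair was less abundant. Col4a5 was at 17.9 and 15.4 FPKM, a ratio of 0.861 (0.805 to 0.920), and Col4a6, its head-to-head neighbour at a gap of 1308 bases, was at 1.49 and 0.942 FPKM, a ratio of 0.632 (0.498 to 0.799). Col4a6 passed the 1.5-fold size only with 0.1 FPKM added among the alternatives run. Col4a3 and Col4a4, which with Col4a5 form the network of the kidney filter, had 7 and 5 reads and 21 and 31 reads. Differences between the libraries were not detectable for them at this depth.

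The other collagens include microfilament, network, transmembrane and multiplexin types, and the widest differences were among them. Of 18 genes 12 were measured, 1 higher and 3 lower by 1.5-fold, beside 1.54% and 4.38% of all genes, with a median of -0.28. The type VI chains, which form beaded microfilaments around cells, were abundant and close together in the libraries. Col6a1 was at 324 FPKM in both, a ratio of 1.00 (0.981 to 1.02), Col6a2 was at 130 and 121 FPKM, a ratio of 0.929 (0.909 to 0.949), and Col6a3 was at 89.4 and 87.7 FPKM, a ratio of 0.982 (0.961 to 1.00). Each had a small negative difference as deposited, which turned positive after scaling to a sum of 1000000.

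The type VI chains that can stand in for the alpha-3 chain went differently from these. Col6a6 (ENSMUSG00000043719, chromosome 9, 105687809 to 105828160) was at 1.72 and 0.666 FPKM, or 238 and 100 reads, 2.59-fold lower (2.04 to 3.30). Col6a5, its neighbour at a gap of 27917 bases, was at 0.811 and 0.266 FPKM, 3.05-fold lower (2.12 to 4.47), with a mean under 1 FPKM. Col6a4, next in the same row of genes, had 5 and 2 reads, too few to show a difference.

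Type VIII and type X collagens are short-chain types that form hexagonal lattices. Col10a1 (ENSMUSG00000039462, chromosome 10, 34389981 to 34397085), the chain of hypertrophic cartilage, was at 16.4 FPKM in the low and 26.9 FPKM in the high mPTP opening library, or 774 and 1378 reads. Its ratio of 1.64 (1.498 to 1.79) was the highest of the measured collagen genes. Col8a1 (ENSMUSG00000068196, chromosome 16, 57624258 to 57754737), a chain of vessel walls and the corneal membrane, was at 86.5 and 117 FPKM, a ratio of 1.35 (1.32 to 1.39) that did not reach the size. Its partner Col8a2 (ENSMUSG00000056174, chromosome 4, 126286793 to 126314330) was at 62.5 and 45.6 FPKM, 1.37-fold lower (1.31 to 1.43). The ratio of Col8a1 to Col8a2 was 1.38 in the low and 2.56 in the high library. Beside Col10a1, the osteoblast gene Ibsp was at 2.99 and 5.34 FPKM and the osteoblast factor Runx2 at 7.34 and 6.21 FPKM. Spp1, the most abundant of the listed osteoblast markers, was at 65.4 and 62.4 FPKM, with an interval that held 1. The hypertrophic cartilage protease gene Mmp13 was at 52.6 and 17.3 FPKM, so these 4 genes did not go together. The measured chondrocyte markers were all positive.

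The multiplexins, collagens of basement membrane zones whose ends can be released as fragments such as endostatin, were lower. Col18a1 (ENSMUSG00000001435, chromosome 10, 77052178 to 77166548), the gene of type XVIII and endostatin, was at 25.2 and 12.5 FPKM, or 2665 and 1439 reads. The high mPTP opening library was thus 2.01-fold lower (1.89 to 2.15). Its difference of -0.96 was short of 2-fold, and it passed 1.5-fold with each other pseudocount, scaling and filter run. Col15a1, the related type XV gene, was at 8.34 and 5.66 FPKM, 1.47-fold lower (1.32 to 1.64), with a difference of -0.49 that was not called. Beside these, 5 of 6 measured mesothelial markers were lower by 1.5-fold or more, with Upk3b at 10.1 and 3.62 FPKM. So were 10 of 12 macrophage markers, with Lyz2 at 301 and 136 FPKM, against 4.38% of all measured genes. The part of these cell types was not tested.

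Col26a1 (ENSMUSG00000004415, chromosome 5, 136741759 to 136883209), a short collagen with an EMI domain, had the largest difference of the measured collagen genes with 1 FPKM added, at -1.08. With 5 FPKM added it was at -0.55, past which Col18a1 stood at -0.79. It was at 4.97 FPKM in the low and 1.83 FPKM in the high mPTP opening library, or 612 and 245 reads, 2.72-fold lower (2.34 to 3.16). Col28a1, a collagen with von Willebrand domains known from peripheral nerve, was at 1.23 and 0.635 FPKM, 1.94-fold lower (1.36 to 2.79), with a mean just under 1 FPKM. The Schwann marker Cdh19 was at 3.37 and 0.0713 FPKM, and it passed a mean of 1 FPKM only through the low library. The part of Schwann cells in these values was not tested.

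Among the transmembrane and anchoring types, Col23a1 was at 2.12 and 1.28 FPKM, 1.66-fold lower (1.31 to 2.11), with a difference of -0.45 that passed only with 0.1 FPKM added. Col7a1, the anchoring fibril chain under the epidermis, was at 3.21 and 3.65 FPKM, a ratio of 1.14 (1.01 to 1.28). Col25a1 was at 0.585 and 0.472 FPKM, and its interval held 1. Col13a1 had 5 and 2 reads and Col17a1, a keratinocyte chain, about 14 and 19.

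The 12 genes under the filter were thus not uniform. Of them 4 had counting intervals below 1 (Col9a3, Col20a1, Col6a5 and Col28a1), 1 had an interval above 1 (Col19a1) and 7 had intervals that held 1. Genes pass this filter on their mean, so the 32 measured genes are not all members of the family.

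Chains that share a trimer had similar ratios in the pairs of abundant genes other than type VIII, and moved apart in pairs with a scarce or differing partner. The ratio of Col1a1 to Col1a2 was 2.44 in the low and 2.50 in the high library, that of Col4a1 to Col4a2 was 1.24 and 1.35, that of Col5a1 to Col5a2 was 1.14 and 1.21, and that of Col6a1 to Col6a2 was 2.48 and 2.67. The shift between libraries in these pairs was at most 1.09-fold. Col6a3 to Col6a1 stood at 0.276 and 0.271, with a shift of 0.982 (0.955 to 1.01). The shift was 1.36-fold for Col4a5 to Col4a6 (1.07 to 1.73), 1.85-fold for Col8a1 to Col8a2 (1.76 to 1.95), 1.99-fold for Col11a1 to Col11a2 (1.55 to 2.57) and 2.68-fold for Col9a1 to Col9a2 (1.96 to 3.65). These intervals are for counting error on the log scale, and a ratio within a library does not depend on how the libraries were scaled.

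**Figure D4:**
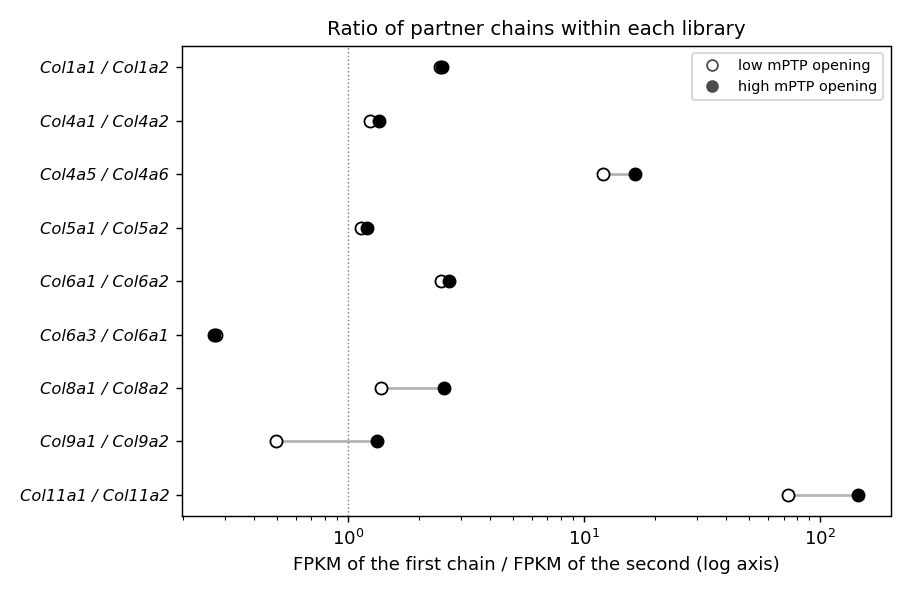
Ratio of the FPKM of partner chains in the low (open) and high (filled) mPTP opening library on a log axis, for the 9 pairs with both genes measured. The type I, IV alpha-1 and alpha-2, V and VI pairs nearly coincide, while Col8a1/Col8a2 goes from 1.38 to 2.56, Col9a1/Col9a2 from 0.498 to 1.33 and Col11a1/Col11a2 from 72.8 to 145.

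Position in the genome was set beside these values. Of 10 pairs of neighbouring collagen genes within 500000 bases 9 had differences of the same sign as deposited, a count that holds near-zero values such as Col6a1 at -0.0005. Of the 44 genes 32 were negative, so many pairs would share a sign in any order, and under each of the 3 other scalings the count was 6 of 10. Col9a3 and Col20a1, on chromosome 2 with 364345 bases between them, were at -0.61 and -0.59. Col3a1 and Col5a2, tail to tail on chromosome 1, were at -0.40 and -0.12. Col6a1 and Col18a1, on chromosome 10 with 326009 bases between them, were at 0.00 and -0.96, so neighbours could also differ.

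Genes that make and handle collagen were examined in 7 lists, of which 64 genes were measured. Of these 0 were higher and 4 lower by 1.5-fold, 0% and 6.25%, near the 1.54% and 4.38% of all measured genes, with a median difference of -0.04. After scaling to a sum of 1000000 the median was 0.083 and 3 of 69 genes were higher. Enzymes that hydroxylate and glycosylate the chains had 0 of 14 called and a median of -0.05, positive once libraries were scaled to a sum of 1000000. P3h2, a prolyl 3-hydroxylase active on type IV chains, was at 2.16 and 1.30 FPKM, Crtap, the partner of prolyl 3-hydroxylase 1, at 96.3 and 74.7 FPKM, and Plod1, a lysyl hydroxylase, at 30.5 and 25.2 FPKM. Chaperones and export factors had 0 of 12 called and a median of 0.12, with 10 positive. Serpinh1, which encodes HSP47, was at 861 and 1053 FPKM, Kdelr2, a receptor that returns proteins to the endoplasmic reticulum, at 144 and 176 FPKM, and Sec23a, a coat protein of export vesicles, at 48.7 and 57.6 FPKM.

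Genes that act outside the cell followed no common direction. Of 6 genes of propeptide removal 0 were called, beside 1.54% higher and 4.38% lower of all measured genes. The median of the list was -0.23, which turned positive after scaling to a sum of 1000000. Adamts2, the procollagen N-proteinase, was at 14.7 and 10.6 FPKM, Adamts3 at 1.55 and 1.00 FPKM, and Tll1, a procollagen C-proteinase of the tolloid family, at 2.68 and 3.91 FPKM. Tll1 was the 1 positive gene of the list, and the other 5 were negative, among them Bmp1 at 75.4 and 59.2 FPKM. Of 6 cross-linking genes 0 were called and 5 were positive, with a median of 0.18. The lysyl oxidase relatives Loxl4 and Loxl3 were at 7.17 and 10.3 FPKM and at 16.9 and 21.8 FPKM, and Tgm2, a transglutaminase, at 9.42 and 11.4 FPKM.

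Receptors and degrading enzymes completed the set. Of 6 measured collagen receptors 0 were called, with a median of -0.05. With no filter the median of 9 receptors was -0.35, and after scaling to a sum of 1000000 it was -0.27 with 1 lower. The receptors added there were Lair1, at 0.737 and 0.359 FPKM, Itga10, at 1.13 and 0.612 FPKM, and Itga2, at 0.725 and 0.261 FPKM, each with a counting interval of the ratio below 1. Itga11, an integrin chain for fibrillar collagen, was at 68.3 and 47.4 FPKM, Itga1, an integrin chain that prefers type IV, at 5.74 and 7.89 FPKM, and the receptor kinase gene Ddr1 at 16.4 and 12.4 FPKM. Collagen-degrading enzymes had the lowest median, -0.46, with 3 of 7 lower, beside 4.38% of all genes. These were the collagenase gene Mmp13, the gelatinase gene Mmp2 at 186 and 104 FPKM, 1.79-fold lower, and the membrane-bound Mmp15 at 3.59 and 1.53 FPKM, 2.35-fold lower. The call of Mmp15 was lost with 5 FPKM added. Of 13 basement membrane partners 1 was lower (7.69%, beside 4.38% of all measured genes), with a median of -0.15. This was Agrn, a heparan sulfate proteoglycan gene, at 26.4 and 16.7 FPKM, and its call was lost after scaling to a sum of 1000000 and with 5 FPKM added. Nid2, a nidogen that links laminin to type IV collagen, was at 113 and 83.1 FPKM and the laminin chain gene Lamb2 at 56.6 and 46.5 FPKM.

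**Figure D5:**
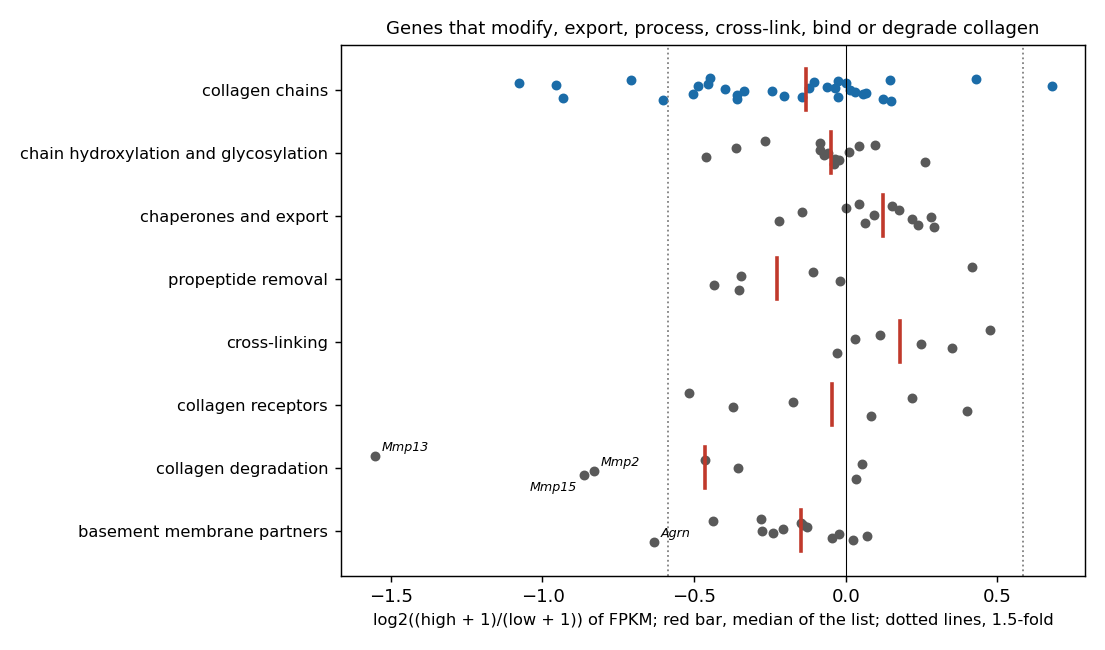
Difference of each measured gene between the high and low mPTP opening library on the log2 scale, for the 32 collagen chain genes (blue) and 7 lists of genes that act on collagen (grey), with red bars at list medians and dotted lines at 1.5-fold. Of the grey points 4 lie past the lower line, Mmp13, Mmp15, Mmp2 and Agrn, and 0 lie past the upper line.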

How the data were processed

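The table was deposited by the authors as FPKM for 2 libraries, matched to the samples by column name. The submitters' processing notes list mm10, TopHat2 2.0.12 and Bowtie2 2.2.3. How genes were counted, with which annotation and strand setting, is not given in the sources used here, so overlapping genes may share reads. Adding up rows that share a symbol gave 23084 symbols.

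FPKM times GENCODE M21 exon length fell on whole steps (within 0.05 reads) in 93.1% (low library) and 93.4% (high library) of genes holding at most 20 reads. These reads gave the intervals. They were whole for 39 of 44 collagen genes, and the intervals of Col2a1, Col8a1, Col11a2, Col17a1 and Col20a1 are approximate. Intervals cover counting error only, since PCR copies are not independent. Intervals of chain ratios used the normal approximation on the log scale.

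All measured collagen genes are named, with the genes past 1.5-fold and the 3 largest differences of each list. Members, classes, lists and markers were chosen with earlier results of these data known. Of the Schwann and glia markers 1 is not reported here. Alternatives were other pseudocounts, scalings, filters and a size of 2-fold. Promoters came from RefSeq, build GRCm38.p6, with 35 of 44 genes matched. Scripts were tested on simulated data. Tools were SciPy 1.17.1, NumPy 2.4.6, matplotlib 3.10.9 and pandas 2.3.3 under Python 3.11.15.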

Additional observations from a re-analysis of the deposited data

How the results depend on the processing

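With 1 library per group no variation between cultures or sorts could be measured, and depth limits the genes under 1 FPKM. No paired analysis was possible because each group holds 1 library. The higher count of 1 collagen gene was 0 with 5 FPKM added and 0 at a size of 2-fold. The lower count of 5 was 8 with 0.1 FPKM added, 1 with 5 FPKM added, 9 after scaling to a sum of 1000000 (37 genes then passed the filter), 2 with the filter at a mean of 5 FPKM and 1 at 2-fold. The other alternatives kept both counts within 1.5 times, and the lower count was 4 after scaling by the median ratio or the trimmed mean. Shares of all genes are given only for the main setting and for 2-fold. Whether all genes shift alike under the other alternatives is not shown. The median of the collagen genes stood at -0.049 with a filter at a mean of 5 FPKM. Scaling to a sum of 1000000 added 0.12 to every log2 ratio before the pseudocount. It also raised all levels while the pseudocount and filter stayed at 1 FPKM, so both weighed less. The class medians became 0.056 for fibrillar, -0.49 for FACIT and -0.056 for type IV genes. Scaling by the median ratio and the trimmed mean added 0.03 each. The median of the other class was -0.14 with 5 FPKM added, -0.11 with no filter and -0.066 with a filter at a mean of 5 FPKM. It was -0.11 without types VII, XV, XVII and XVIII. The collagen share of all FPKM had a ratio of high to low of 1.07, which was 0.980 over protein-coding rows outside the mitochondrial chromosome and 0.981 over reads. No called collagen gene changed sign under any alternative run. The cause of these shifts was not tested.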
